A study of Homo sapiens with 5 samples.

Results

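The genes described here are 10 regulators of the G1 phase of the cell cycle: the D-type cyclins CCND1 and CCND3, their kinases CDK4 and CDK6, the E-type cyclins CCNE1 and CCNE2, their kinase CDK2, the inhibitor CDKN1B, the retinoblastoma protein gene RB1 and the transcription factor E2F1. They were taken by name from a table of 17297 genes, and all 10 were in it. They were chosen by their role with the footprint counts of mutant and wild-type libraries already known, and CCND1 was picked out as the most abundant of them with higher counts in the mutant. Their values in that comparison are therefore a description, and no p-value is given for them. The same holds for their intervals, their side of the threshold and their refits, which come from the libraries already known and cannot test these genes. Ribosome profiling was done on HCT116, a human colorectal carcinoma cell line. It counts mRNA fragments protected by ribosomes, which makes a count a measure of the ribosomes found on an mRNA. The WT group was 2 libraries of cells with the genotype Wt. The MUT group was 3 libraries of cells with the genotype eIF6-N106S, carried on both alleles and made by CRISPR/Cas9 editing of clones. eIF6 binds the large ribosomal subunit and keeps it from joining the small one, and the series title asks what targeting it does to ribosomal subunits, mitotic exit and cancer growth. The labels do not give the number of clones, or state that replicate libraries are separate cultures. The p-values given for other genes thus rest on the spread between libraries alone, possibly a technical one, and the mutation cannot be told apart from other differences between edited and unedited cells. RNA-seq was not analysed here, so more mRNA and more ribosomes per mRNA cannot be told apart either.

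In G1, mitogen signals raise D-type cyclins, which pair with CDK4 or CDK6 and begin to phosphorylate the retinoblastoma protein. That protein otherwise holds E2F factors in check. Released E2F drives genes of DNA synthesis and the E-type cyclins, which pair with CDK2 and complete the phosphorylation, while the inhibitor p27 (CDKN1B) binds these complexes and blocks CDK2. Cyclin D1 is a short-lived protein and a well-known target of RAS and WNT signalling in colorectal cells.

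The libraries held 2095217 to 3821176 counts, the smallest being WT replicate 1. EIF6 itself had 178 ± 9.16 CPM (SD, n = 2) in WT, where CPM is the count scaled to the library's TMM-adjusted total, and 157 ± 10.7 CPM (SD, n = 3) in MUT. An amino acid change need not alter a footprint count, so this does not check the labels. Of 12 markers of colorectal epithelium, 10 were in the table. KRT8, KRT18 and KRT19 had at least 598 counts in each library, while VIL1, CDX1 and TSPAN8 had at most 2. The summed level of these markers was 1041 to 1113 CPM (of unscaled totals) in WT and 1161 to 1465 CPM in MUT. Most of this sum came from the keratins, and the list moved both ways: of 6 markers tested, KRT8 and KRT19 were called higher (log2 fold changes 0.37 and 0.29, edgeR adjusted p 0.0199 and 0.0463). CDH1, which encodes E-cadherin, and the surface antigen gene EPCAM were called lower (-0.90 and -0.50, edgeR adjusted p 0.00741 and 0.0087). Of 12 measured markers of other cell types, 8 had under 10 counts in every library. The summed level of the 12 was 35.5 to 39.1 CPM in WT and 45.8 to 54.7 CPM in MUT. Of the 4 tested, ACTA2 was called higher (log2 fold change 0.81, edgeR adjusted p 0.0179) and 3 were not called. The part of these shifts in the results was not tested.

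Promoter sequences from RefSeq (GRCh38.p14) were matched for 7 of the 10 genes, with 10 windows in all, and the 250 bases before each annotated start were searched on both strands. CCND1, CCNE2 and CDK2 were not searched. The window of E2F1 is shown because this gene is a known target of the E2F family as well as a member of it, and that of CDK4 because it held the E-boxes. The E2F motif was searched as TTTCGCG, as TTTGGCG, as TTTCCCG and as TTTGCCG, and E2F1 was the 1 gene of the 7 searched with a match, against 7.33% of all 35116 promoter windows. Its 3 matches, of which the first and second overlap, lie within 37 bases of the start. The E-box CACGTG, which basic helix-loop-helix factors bind, was found in CDK4 and in 6.34% of all windows. The capitals mark the E2F matches in the 100 bases before the E2F1 start (chr20:33686386-33686485, minus strand) and the E-boxes in the 220 bases before the CDK4 start (chr12:57752311-57752530, minus strand):
E2F1: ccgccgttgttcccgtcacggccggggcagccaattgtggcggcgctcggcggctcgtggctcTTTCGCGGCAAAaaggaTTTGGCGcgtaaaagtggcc
CDK4: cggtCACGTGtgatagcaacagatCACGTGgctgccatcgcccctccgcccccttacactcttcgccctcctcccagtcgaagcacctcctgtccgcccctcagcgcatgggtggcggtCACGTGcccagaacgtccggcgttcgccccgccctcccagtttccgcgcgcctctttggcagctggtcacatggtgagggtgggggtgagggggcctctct
The AP-1 site TGACTCA and the CRE TGACGTCA had no match in the windows of the 7 genes searched, and they occur in 4.2% and 1.65% of all windows. The GC box GGGCGG was in 7 of the 10 windows and in 42.6% of all. The window listed for RB1 starts 172699 bases inside the gene and is not its main promoter. A match describes these letters only.

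Among the 10 genes, CCND1 and CDK6 rose, CDKN1B fell and 7 did not pass the threshold of 0.05 on the adjusted p of edgeR's fit across all genes. Of all 11991 genes tested, 10.0% were higher and 12.9% lower in MUT. The share called was larger among well-counted genes such as these. Of 7415 genes with a mean CPM at or above that of E2F1, the lowest of the 10, 833 were higher and 1358 lower, 29.5% in all. All 10 genes passed the filter on low counts in the same way in both groups, with at least 68 counts in every library. The MUT libraries lay wholly above the WT libraries for 3 of them and wholly below for 2, and such separation was seen for 25.4% of all tested genes upwards and 25.3% downwards, 50.7% in all. The median log2 fold change was 0.040, where that of all tested genes was 0.0024. Together the 10 genes took 0.177% and 0.178% of all counts in the WT libraries, against 0.224%, 0.226% and 0.234% in the MUT libraries. This sum largely follows CCND1, the gene picked out for its rise. CCND1 held 1306 of the 3704 counts of the 10 genes in WT replicate 1 and 4015 of 8947 in MUT replicate 3.

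**Figure D1:**
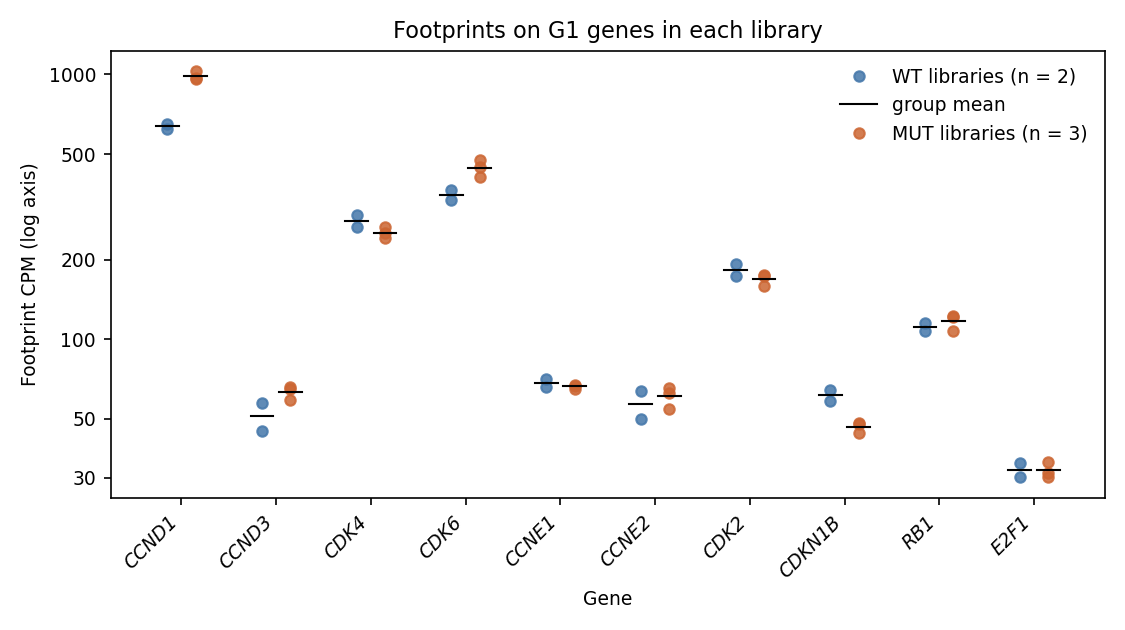
Footprint CPM (log axis) of the 10 G1 genes, with 1 point per library, blue for WT (n = 2) and orange for MUT (n = 3), and a bar at each group mean. CCND1 and CDK6 have all MUT points above the WT points, CDKN1B has all of them below, and the points of CCNE1, CCNE2, CDK2, RB1 and E2F1 overlap. Heights of different genes are not comparable, since counts are not divided by coding length.

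CCND1 encodes cyclin D1 and lies on chromosome 11 (gene ID 595, 69641156 to 69654474, GRCh38.p14). Its level was 652 and 623 CPM in the WT libraries, replicate 1 first here and in what follows, against 961, 972 and 1030.2 CPM in the MUT libraries. The groups did not overlap, and the gap between them was larger than the spread within either. The means were 637 ± 21.0 CPM (SD, n = 2) and 988 ± 37.3 CPM (SD, n = 3), a log2 fold change of 0.63 (SE 0.098), or 1.55-fold. Its 95% interval ran from 0.43 to 0.83. This value lay at the 93.4th percentile of all tested genes, so a change of this size was not rare in these libraries. With between 1306 and 4015 counts per library, counting error was at most 2.77%.

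CCND3, which encodes cyclin D3, the other D-type cyclin of the group, had 57.4 and 45.1 CPM in WT and 58.8, 66.1 and 64.7 CPM in MUT. Both WT libraries lay below the MUT libraries, but the lowest MUT library was only just above WT replicate 1. The log2 fold change was 0.33 (SE 0.137, 95% interval 0.05 to 0.61) and did not pass the threshold. Leaving out WT replicate 2 gave 0.15 and leaving out WT replicate 1 gave 0.48, so its size rested on which WT library was used. It passed under library-size and upper-quartile scaling (0.40 and 0.37). Within the pair, which needs no scaling between libraries, CCND1 took 91.9% and 93.2% of the counts in WT and 94.2%, 93.6% and 94.1% in MUT. The exact 95% binomial intervals of WT replicate 2 (92.1% to 94.3%) and MUT replicate 2 (92.8% to 94.4%) overlapped.

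CDK6 (gene ID 1021, chromosome 7, 92604921 to 92836573), a kinase partner of the D-type cyclins, had 337 and 365 CPM in WT and 410, 449 and 474 CPM in MUT. All MUT libraries were above both WT libraries. The log2 fold change was 0.34 (SE 0.0977, 95% interval 0.14 to 0.54), or 1.26-fold. The gene did not pass the threshold without WT replicate 1 (0.28) or without MUT replicate 3 (0.29).

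CDK4 is the other D-type cyclin kinase, and its log2 fold change had the opposite sign. It had 295 and 265 CPM in WT and 265, 241 and 251 CPM in MUT, where the highest MUT library lay next to the lower WT library. Its log2 fold change of -0.15 (SE 0.0942, 95% interval -0.34 to 0.05) did not pass. CDK6 made up 53.3% and 57.9% of the counts of this kinase pair in WT and 60.8%, 65.1% and 65.4% in MUT. Its share was 55.6% ± 3.27 (SD, n = 2) in WT and 63.7% ± 2.59 (SD, n = 3) in MUT, and no MUT library was as low as a WT library. The intervals of WT replicate 2 (55.7% to 60.1%) and MUT replicate 1 (58.6% to 62.8%) overlapped. Counts were not divided by coding length, so the change in a share can be read, but not which kinase is made more.

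**Figure D2:**
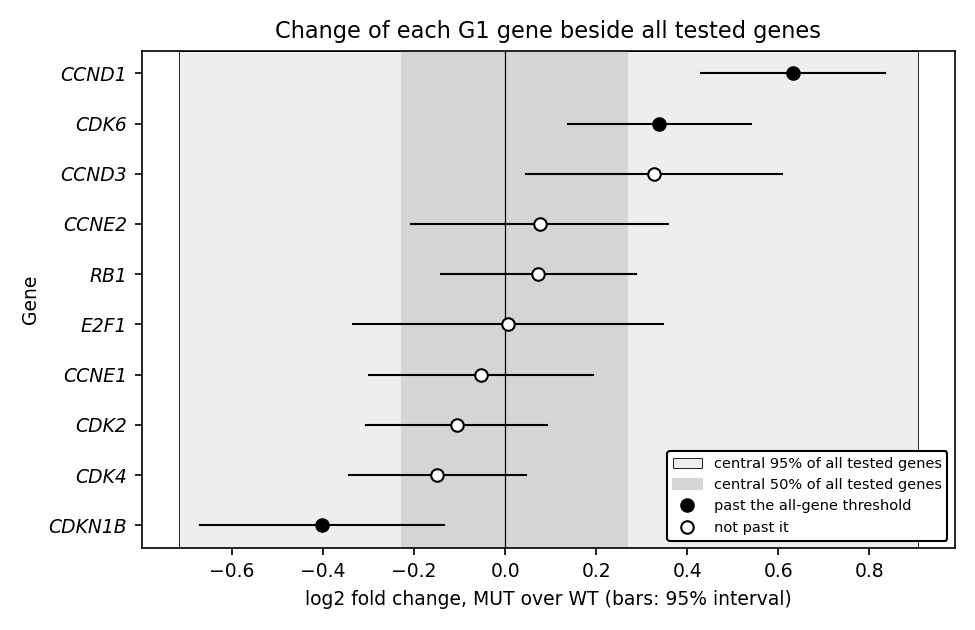
Log2 fold change of each gene, MUT over WT, with its 95% interval; the shaded bands hold the central 50% and 95% of all tested genes. Filled points passed the threshold across all genes, and CCND1 at 0.63, CDK6 at 0.34 and CDKN1B at -0.40 are the 3 filled points.

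The E-type cyclins and their kinase showed no separation between the groups. CCNE1, cyclin E1, had 65.9 and 70.9 CPM in WT and 67.4, 66.6 and 64.9 CPM in MUT, so the MUT libraries spanned the lower WT value. Its log2 fold change was -0.052 (95% interval -0.30 to 0.19) and turned positive with library size only (0.020) and without WT replicate 2 (0.0145). CCNE2, cyclin E2, had 49.9 and 63.8 CPM in WT and 62.7, 65.6 and 54.4 CPM in MUT. The WT libraries alone spanned almost the whole range of this gene. Its log2 fold change of 0.076 (95% interval -0.21 to 0.36) became -0.0755 without WT replicate 1. CDK2 had 192 and 174 CPM in WT and 175, 174 and 159 CPM in MUT, with a log2 fold change of -0.11 (95% interval -0.30 to 0.09). CCNE2 took 45.2% ± 2.99 (SD, n = 2) of the counts of the cyclin E pair in WT and 47.8% ± 2.03 (SD, n = 3) in MUT, and the libraries overlapped. The intervals of these 3 genes reach as low as -0.30 and as high as 0.36, and changes within those bounds could not be told from none with this number of libraries.

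CDKN1B, which encodes p27 (gene ID 1027, chromosome 12, 12717368 to 12722369), was the 1 member that fell. It had 58.4 and 64.4 CPM in WT and 47.7, 48.2 and 44.4 CPM in MUT. The 3 MUT libraries lay close together and below both WT libraries. The means were 61.4 ± 4.23 CPM (SD, n = 2) and 46.8 ± 2.07 CPM (SD, n = 3), a log2 fold change of -0.40 (SE 0.131, 95% interval -0.67 to -0.13), or 1.32-fold lower. The 14 alternatives refit the libraries in which these genes were chosen. They describe dependence on the processing and add no support for CCND1 or CDKN1B. The log2 fold change of CCND1 ran from 0.60 to 0.71 over them. The CDKN1B call ended with library size only (-0.33), in DESeq2 (-0.40), and without WT replicate 2 (-0.32), MUT replicate 1 (-0.42) or MUT replicate 3 (-0.36), while the sign was the same in all 14.

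Ratios of counts within a library show the same genes without any scaling between libraries. There were 11.2 and 9.66 CCND1 footprints per CDKN1B footprint in WT and 20.1, 20.2 and 23.2 in MUT, and the MUT mean was 2.03 times the WT mean. CDK6 per CDKN1B went from 5.77 and 5.67 to 8.6, 9.32 and 10.7. CCND1 per CDK4 went from 2.21 and 2.35 to 3.63, 4.04 and 4.11. For each of these the MUT libraries lay above both WT libraries. CCND1 and CDKN1B were already known to rise most and to fall among the 10, so a gap in their ratio follows from that choice. CCND1 per CDK6, both of which rose, had a MUT mean 1.22 times the WT mean. The ratio of RB1 to E2F1 was 3.16 and 3.84 in WT and 3.14, 3.87 and 4.06 in MUT, so there the groups overlapped.

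RB1, the gene of the retinoblastoma protein, had 107 and 115 CPM in WT and 108, 121 and 123 CPM in MUT. The lowest MUT library sat between the WT libraries. Its log2 fold change was 0.073 (SE 0.104, 95% interval -0.14 to 0.29). E2F1, the transcription factor that this protein restrains, had 34 and 30.1 CPM in WT and 34.4, 31.3 and 30.3 CPM in MUT. The groups overlapped fully, and the log2 fold change was 0.0063 (95% interval -0.33 to 0.35), with the sign turned when WT replicate 2 (-0.0837) or MUT replicate 1 (-0.0447) was left out. E2F1 had the fewest counts of the 10 genes, 68 in WT replicate 1, where counting error alone is 12.1%.

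RBL2, a relative of RB1, encodes p130, the pocket protein that binds E2F in resting cells. It is no member of the group of 10 and comes from a list of 20 pocket protein, E2F, DP and DREAM complex genes, on which it had the lowest log2 fold change. RBL2 had 109 and 105 CPM in WT and 51.2, 57.7 and 54.1 CPM in MUT. The MUT level was 0.508 times the WT level, and the spread within each group was small beside that gap. The log2 fold change was -0.98 (SE 0.114), edgeR's adjusted p was 2.45e-06, and the call held in all 14 alternatives. The lists were written with earlier results of these data known, and their genes are named by lowest p. For RBL2 and the list genes below, p-values and refits thus describe these libraries and add no independent support. The RBL2 shares and ratio that follow reuse the same counts. Of the counts on RB1, RBL1 and RBL2 together, RBL2 took 36.9% and 34.9% in WT and 22.3%, 23.1% and 22.5% in MUT. RB1 took 37.2% ± 1.40 (SD, n = 2) of them in WT and 48.9% ± 2.04 (SD, n = 3) in MUT. RB1 per RBL2 was 0.982 and 1.1 in WT against 2.11, 2.1 and 2.27 in MUT.

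**Figure D3:**
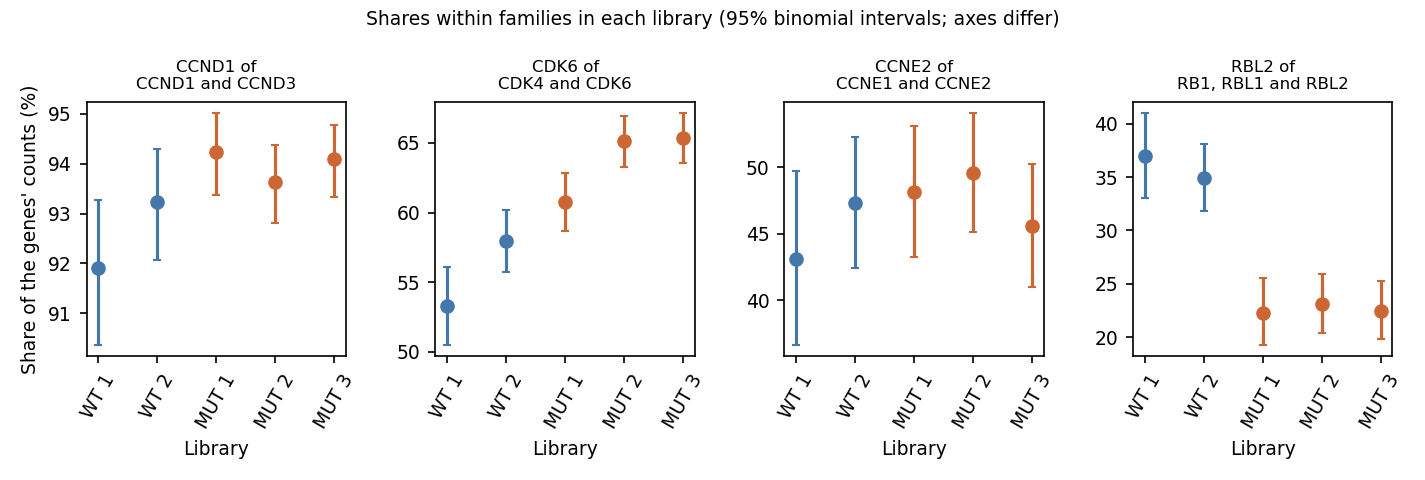
Share of a family's counts taken by 1 gene in each library, with exact 95% binomial intervals, which cover counting error only; the axes differ between panels and do not start at 0. RBL2 makes up 35.9% of pocket protein counts in WT and 22.6% in MUT with no overlap, the CDK6 share is higher in every MUT library than in either WT library, and the CCNE2 share overlaps between the groups.

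On that list of 20 genes, 3 fell (15%, against 12.9% of all tested genes) and 0 rose (0%, against 10.0%). The median log2 fold change was -0.10. At an unadjusted p under 0.05 the counts were 3 lower and 2 higher, and DESeq2 and limma-voom also called 0 higher. The others that fell were RBBP4, a histone-binding subunit of the DREAM complex (log2 fold change -0.48, edgeR adjusted p 0.00104), and the deacetylase HDAC2 (-0.48, 0.00209). HDAC2 lost its call without WT replicate 2, where its log2 fold change was -0.26 and its adjusted p 0.165, the highest in a range over alternatives that starts at 1.53e-05. With library size only 2 genes of the list were called higher. Here and in the lists below, shares are set against all tested genes. Of the 7415 genes with a mean CPM at or above that of E2F1, 833 were higher and 1358 lower. Calls were thus more frequent among well-counted genes, and the all-gene shares are a low background for well-counted lists.

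Among the other inhibitors of these kinases, CDKN1A rose. This gene encodes p21 and had 354 and 288 CPM in WT and 557, 535 and 629 CPM in MUT. Every MUT library was far above both WT libraries. The rise was 1.8-fold, with a log2 fold change of 0.85 (SE 0.108) and an edgeR adjusted p of 8.46e-06, and was called in all 14 alternatives. CDKN1A per CDKN1B went from 6.05 and 4.47 in WT to 11.7, 11.1 and 14.2 in MUT. Of 7 inhibitor genes tested, CDKN1A was the 1 that rose (14.3%, against 10.0% of all tested genes) and 0 fell (0%, against 12.9%). Unadjusted p under 0.05 gave 2 higher and 1 lower, and DESeq2 and limma-voom called 0 lower. With the replicate block and without MUT replicate 3, 1 gene of this list was called lower. The median of the list was 0.11.

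Of 33 tested genes that E2F drives at the start of S phase, 2 rose (6.06%, against 10.0% of all tested genes), 7 fell (21.2%, against 12.9%) and 24 did not pass the threshold. Their median log2 fold change was -0.14. The lowest mean level among them was 51.5 CPM, above that of E2F1, so the all-gene shares are a low background for this list. MCM2, a subunit of the replicative helicase, had 105 and 99.4 CPM in WT and 158, 172 and 158 CPM in MUT, and rose 1.6-fold (edgeR adjusted p 5.15e-05). PCNA, the sliding clamp of DNA polymerases, had 465 and 473 CPM in WT and 356, 333 and 301 CPM in MUT, and its log2 fold change was -0.51 (edgeR adjusted p 0.000559). CDT1, which loads the replicative helicase, fell 1.37-fold (edgeR adjusted p 0.00458). The groups did not overlap for any of these 3 genes. Without WT replicate 2 the list held 1 higher and 4 lower genes, and without MUT replicate 1 it held 4 lower. Leaving out WT replicate 1, or MUT replicate 2, left 1 higher gene, and 4 were higher with library size only, upper-quartile scaling or the replicate block.

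Of 20 other cyclins, CDKs and their direct regulators tested, 2 rose and 8 fell, with a median of -0.18. These shares were 10% and 40%, against 10.0% and 12.9% of all tested genes. The mitotic kinase gene CDK1 fell 1.43-fold and CCNB2, a B-type cyclin that activates it, 1.41-fold. CKS2, a small subunit of CDK complexes, had 276 and 244 CPM in WT and 205, 172 and 180 CPM in MUT, a 1.4-fold fall. CCNC, the cyclin of the Mediator kinase module, also fell 1.4-fold. The edgeR adjusted p values of these 4 genes lay between 0.000591 and 0.00152, and CCNB2 lost its call without WT replicate 2. The list held 5 lower genes in DESeq2 and with library size only, and 4 without WT replicate 2. Without WT replicate 1 it held 1 higher gene.

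**Figure D4:**
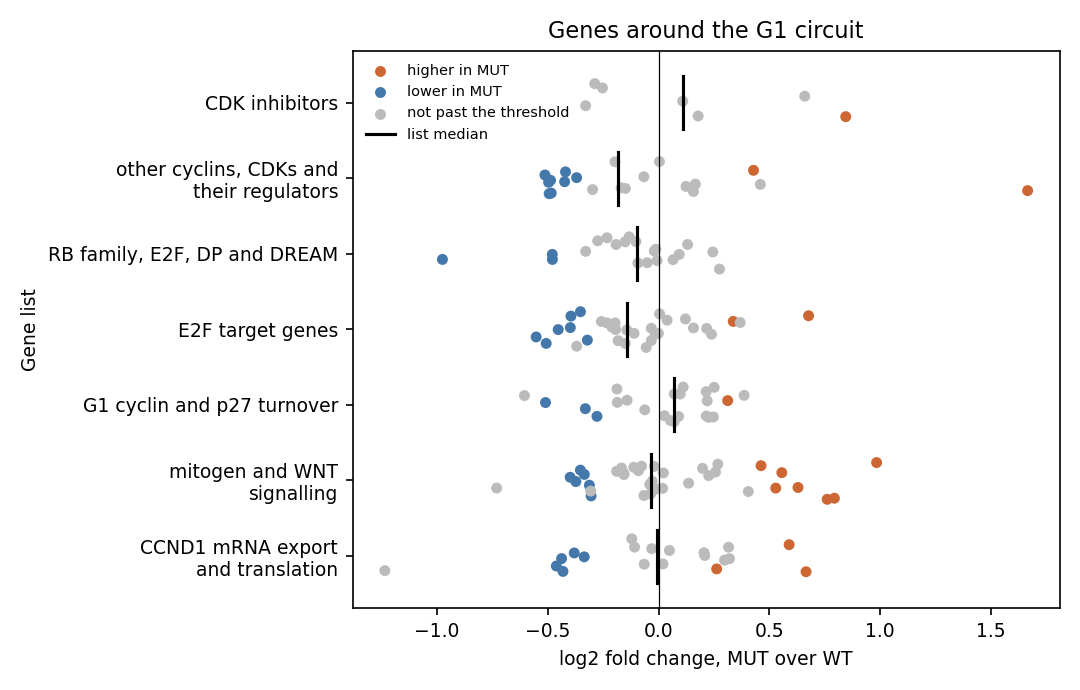
Log2 fold change, MUT over WT, of every tested gene in 7 lists around the G1 circuit, with orange for genes called higher, blue for genes called lower, grey for the rest and a bar at each list's median. All 7 medians lie between -0.18 and 0.11; RBL2 is the lowest blue point of the RB family list at -0.98 and CDKN1A the orange point of the inhibitor list at 0.85. Genes on more than 1 list are drawn in each.

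Among 36 genes of mitogen and WNT signalling that act on CCND1, 7 rose and 6 fell, with a median of -0.032. These shares were 19.4% and 16.7%, against 10.0% and 12.9% of all tested genes. FOSL1 and FOSL2 are AP-1 transcription factors. FOSL1 had 155 and 127 CPM in WT and 214, 194 and 197 CPM in MUT, and FOSL2 had 46.9 and 45.8 CPM in WT and 91, 73.2 and 72.4 CPM in MUT. They rose 1.44-fold and 1.7-fold. The small GTPase gene HRAS rose 1.98-fold and the kinase gene ARAF 1.55-fold. The edgeR adjusted p values of the 4 lay between 0.000358 and 0.00101. FOSL1 and ARAF lost their calls without WT replicate 2, where the list held 2 higher genes. It held 3 lower genes with library size only, 2 without WT replicate 1 and 1 without MUT replicate 1.

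Of 20 factors known to act on the export, translation or stability of cyclin D1 mRNA, 3 rose and 5 fell, with a median of -0.0054. These shares were 15% and 25%, against 10.0% and 12.9% of all tested genes. EIF4G1, which bridges the mRNA cap and the small ribosomal subunit, rose 1.59-fold. RPTOR, the defining subunit of mTORC1, went from 57.4 and 65.7 CPM in WT to 97.7, 97.7 and 85.4 CPM in MUT, 1.51-fold higher. The RNA-binding proteins HNRNPA1 and PUM2 fell 1.38-fold and 1.3-fold. The edgeR adjusted p values of the 4 lay between 6.58e-05 and 0.00386, and each was called in all 14 alternatives. With library size only 6 genes of the list were higher, and without WT replicate 1 there were 3 lower.

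Of 23 genes of G1 cyclin and p27 turnover, 1 rose (4.35%, against 10.0% of all tested genes) and 3 fell (13%, against 12.9%). The median was 0.071. SKP1, a core subunit of the SCF ubiquitin ligase that degrades cyclin E and p27, had 259 and 287 CPM in WT and 188, 206 and 182 CPM in MUT. Its log2 fold change was -0.51 (edgeR adjusted p 0.000487) and was called in all 14 alternatives. RBX1, the RING subunit of that ligase, and the nuclear export receptor XPO1 fell and the kinase gene CSNK1D rose, at -0.28, -0.33 and 0.31 on the log2 scale. Each of the 3 lost its call in at least 2 alternatives, RBX1 in 8 of 14. Leaving out WT replicate 2, or MUT replicate 1, left 1 lower gene on the list. The count of higher genes was 0 in DESeq2 and when WT replicate 1, WT replicate 2 or MUT replicate 2 was left out. It was 2 when MUT replicate 3 was left out and with the replicate block, the strict filter, upper-quartile scaling or library size only.

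The genes whose pattern over the 5 libraries was most like that of CCND1 were sought among 3143 others with a mean of at least 100 CPM, by the Euclidean distance between log2 CPM centred on each gene's mean. They were NR2F2 at a distance of 0.0734 log2 units, CYFIP2 at 0.0909, EPB41L1 at 0.0962, DPP9 at 0.104 and PTPN14 at 0.121. NR2F2, the nearest, had 187 and 175 CPM in WT and 275, 292 and 300 CPM in MUT, 1.6-fold higher. With 5 libraries and CCND1 chosen for its pattern, this is a description of likeness.

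**Figure D5:**
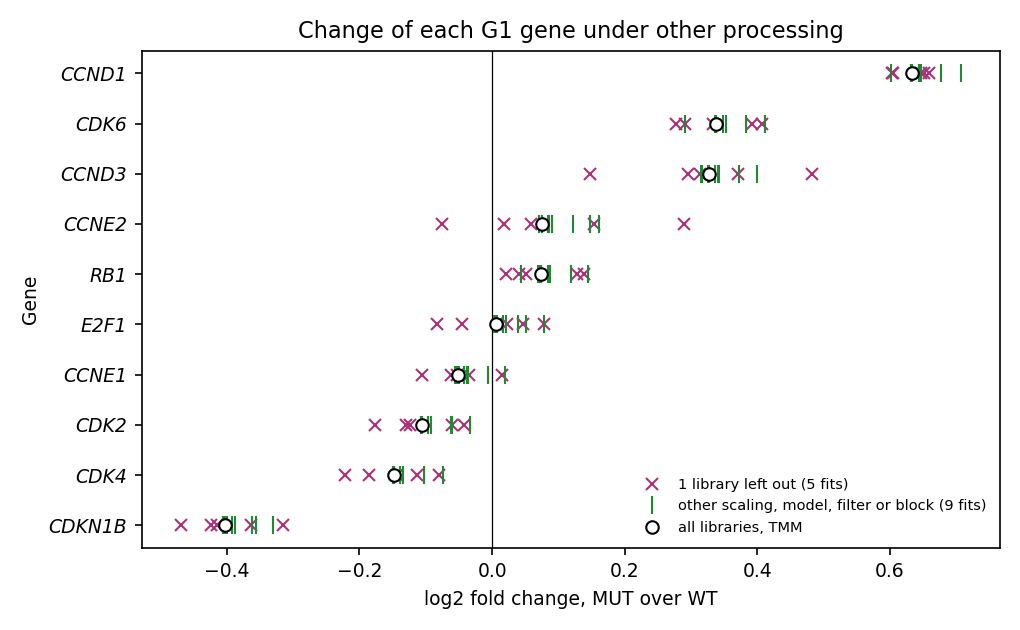
Log2 fold change of each of the 10 genes with all libraries and TMM scaling (circles), with 1 library left out (crosses) and under other scalings, models, filters or the replicate block (ticks). CCND1 stays between 0.60 and 0.71, CDKN1B between -0.47 and -0.32, and CCNE1, CCNE2 and E2F1 have values on both sides of 0.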

How the data were processed

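The members and the gene lists were chosen with earlier results of these data known. The deposited values are raw counts of ribosome-protected fragments per gene, whole numbers that the authors did not normalize. Per the labels' protocols, extracts were digested with MNase, which cuts preferentially at A and T, and fragments came from the 80S monosome fraction. Per the submitters' processing notes, cutadapt 4.6, STAR 2.5.2b, FastQC 0.12.1, DESeq2 1.42.0 and hg38 were used. Not given in the sources used here are the counting tool, the annotation and any use of strand, and overlapping genes cannot be told apart. Libraries were matched by the sample codes in the table header.

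Counts were fitted in R 4.3.3 with edgeR 4.0.16 (filterByExpr, minimum count 10, minimum total 15; TMM; quasi-likelihood F test, MUT against WT, 3 residual degrees of freedom). The Benjamini-Hochberg adjustment of p-values ran over 11991 genes, threshold 0.05. CPM used TMM-scaled library sizes. Standard errors came from the F statistic and 95% intervals from its degrees of freedom, before adjustment over genes. Binomial intervals cover counting error only. Changes are relative to other genes. No libraries were copies (chi-square per gene at least 1.92 in every pair). The fit was tested on simulated data with 50 genes changed at each size. It recovered 4 at 1.25-fold, 27 at 1.5-fold and 48 at 2-fold, and 8 of its 135 calls were false. In this simulation changes near 1.25-fold were thus mostly missed. It gave every gene the same dispersion and made 135 calls, where the data gave 2747. Its recovery rates may therefore not hold for these data. Alternatives were RLE, upper-quartile and library-size scaling, DESeq2, limma-voom (limma 3.58.1), robust dispersion, no filter, a strict filter (30 counts in 2 libraries, mean 10 CPM), the replicate number as a block, and each library left out.

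Beside the 10 members, the text names up to 4 called genes of each list with the lowest p and the 5 genes nearest to CCND1; 1 gene under this rule is not reported here.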

Additional observations from a re-analysis of the deposited data

How the results depend on the processing

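Of 546 refits of the 39 genes that the naming rule gave, 514 kept their sign and their side of the threshold, 25 lost the call, 2 gained it and 5 changed sign. The changes of sign were CCNE1 with library size only (0.0201), and CCNE1, CCNE2 and E2F1 with 1 library left out. There CCNE1 ranged from -0.105 to 0.0145, CCNE2 from -0.0755 to 0.290 and E2F1 from -0.0837 to 0.0777, and none of these genes passed the threshold in any of the 14 alternatives. Over all genes, 1203 higher and 1544 lower became 610 and 953 in DESeq2, and leaving out 1 library gave 509 to 1089 higher and 732 to 1339 lower. Among the 10 members, leaving out 1 library gave 1 to 2 higher and 0 to 1 lower, and 0 were lower with library size only and in DESeq2. Over the pathway lists together, 16 higher and 32 lower genes became 27 higher with library size only, and 8 to 19 higher and 19 to 31 lower with 1 library left out. The cause of these shifts was not tested. Library size only put the median of all genes at 0.0745, against 0.0024 with TMM, and moved the log2 fold change of CCND1 from 0.63 to 0.71. Replicate numbers are shared by the groups but are not said to pair libraries. Deviations of same-numbered libraries correlated at 0.0793 and 0.148 (replicates 1 and 2, across genes). With the replicate block 1529 genes were higher and 1909 lower, and 2 members were higher and 1 lower, as without it. Only MUT has a replicate 3, so with the block that library does not inform the contrast. The larger counts are thus not a like comparison with the main fit. Depth limits CCND3, CCNE1, CCNE2, CDKN1B and E2F1 most, where counting error in WT replicate 1 was 8.7% to 12.1%.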
